A study of Danio rerio with 9 samples.

Results

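The comparison set 6 libraries of zebrafish intestine, the 3 of the group coded SBM and the 3 of the group coded D3, against the 3 libraries of the group coded FM, and asked what SBM and D3 share against FM. It takes in 9 of the 9 libraries of the series, 6 on one side and 3 on the other, each put in its group by its title. By its title, the study concerns soybean meal enteritis and β,β-dimethylacryloyl shikonin, a shikonin ester. None of the 3 codes is written out in the labels, and no strain, age, sex, diet, dose or time is recorded for any group. What all 9 samples share is the species, the tissue and the same RNA and library kits. Nothing in the labels says whether a library is 1 fish or a pool, or whether replicates are separate animals, so the spread between libraries may be partly technical. Since SBM and D3 are pooled, an exchange of samples between those groups would leave the pooled comparison as it is.

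Soybean meal is known to inflame the hind gut of fish, where the folds of the mucosa shorten and absorptive cells lose their vacuoles. The lining consists mainly of absorptive enterocytes, whose brush border carries digestive enzymes and nutrient transporters, and of goblet and enteroendocrine cells, all renewed from dividing cells at the base of the folds. Interferon-stimulated genes encode antiviral proteins that rise when STAT transcription factors are activated. Haem oxygenase breaks haem down to biliverdin, iron and carbon monoxide and is induced by oxidative stress and by haem.

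Total counts ran from 34436497 to 36203230 per library, and 22961 to 24472 genes had at least 1 read. The fatty acid carrier gene fabp2, a mark of enterocytes, was at 1317 to 4722 CPM (counts scaled to the TMM-adjusted library size) in SBM and D3 and at 3967 to 5478 CPM in FM. The brush border gene vil1 was at 802 to 1649 CPM in SBM and D3 and at 1681 to 1810 CPM in FM, so markers of the labelled tissue were present in every library. The FM libraries were the more alike: the median SD of log2 CPM over the 16351 genes with a mean of at least 1 CPM was 0.43 in SBM, 0.455 in D3 and 0.226 in FM. Some libraries had high levels of ovary or hepatocyte marker genes. A list of 52 ovary and oocyte genes took 1.23, 0.0499 and 0.188% of the counts in SBM and 0.0724, 0.0844 and 1.28% in D3, against 0.0217 to 0.0442% in FM, and none of its genes was at 0 in every FM library. A list of 53 hepatocyte genes took 0.667, 4.61 and 0.219% in SBM and 2.7, 3.65 and 0.31% in D3, against 0.339 to 0.738% in FM, where arg1 alone was at 0 in every library. In bulk tissue, fewer cells of a type and less RNA per cell cannot be told apart.

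No single gene passed the edgeR quasi-likelihood test over all 19450 tested genes. The test called 0 genes (0%) in either direction at a Benjamini-Hochberg adjusted p under 0.05, and its smallest adjusted p was 0.0916. At an unadjusted p under 0.05, edgeR had 2036 genes higher (10.5%) and 1470 lower (7.56%) in SBM and D3. Limma-voom called 0 genes (497 higher and 1709 lower at an unadjusted p under 0.05), and DESeq2 called 1168 higher (6.01%) and 323 lower (1.66%). A DESeq2 call together with full separation of the groups held for 584 genes higher (3%) and 301 lower (1.55%). With 1 weight per group, limma-voom called hmox1a and ydjc lower (0.0103%) and none higher (0%). Without the 3 libraries highest in hepatocyte genes (SBM 2, D3 1 and D3 2), edgeR called 2069 genes higher (10.6%) and 825 lower (4.24%). This left SBM 1, SBM 3 and D3 3, and SBM 1 and D3 3 were the libraries highest in oocyte genes. In that fit 43 of 47 tested ovary and oocyte genes were called higher. Without SBM 2 alone edgeR called 7 lower (0.036%). Without the 2 libraries highest in oocyte genes (SBM 1 and D3 3) it again called 0.

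A plainer measure of what both groups share is the number of genes for which all 6 SBM and D3 libraries lay beyond all 3 FM libraries. All 6 were above FM for 979 genes (5.03%) and below FM for 1041 genes (5.35%). The differences on the lower side were small and tight, with a median log2 difference of −0.66 and a median SE of 0.23, and those on the higher side were large and variable, with a median of 2.02 and a median SE of 0.70. The 2 sides depend on the scaling, since library size alone in place of TMM factors gave 1469 genes above (7.55%) and 258 below (1.33%). The median log2 difference of all tested genes was 0.02 with TMM factors and 0.28 with library size alone. Leaving out SBM 2 gave 1842 above and 1711 below. Leaving out FM 1, FM 2 or FM 3 gave 1622, 1577 and 1313 above and 1827, 1615 and 1569 below.

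The haem oxygenase gene hmox1a showed the widest separation on the lower side among genes with a mean of at least 1 CPM. It stood at 29.6, 26.7 and 12.2 CPM in SBM and 24.6, 20.2 and 12.5 CPM in D3, against 233, 140 and 121 CPM in FM. The highest SBM or D3 library was thus 4.1-fold below the lowest FM library, and such a gap of at least 2-fold was found for 6 genes below FM (0.0308%) and 33 above (0.17%). The log2 difference was −2.97 ± 0.33 (SE), with an edgeR adjusted p of 0.0916 and a DESeq2 adjusted p of 1.04e-10. Against the same FM libraries, the difference was −2.85 ± 0.44 for SBM and −3.11 ± 0.44 for D3. Across 21 other settings it ran from −3.20 to −2.64, and the adjusted p ran from 1.04e-10 to 0.47, under 0.05 in 5 of them. In the list of haem breakdown, haem synthesis and iron, 3 of 35 tested genes lay below FM in all 6 libraries (8.57%, against 5.35% of all genes). Besides hmox1a these were the haem exporter gene flvcr1 (−1.03 ± 0.32) and its relative flvcr2b (−0.59 ± 0.17). The list's median was 0.09, and library size alone gave 0.36, with 1 gene below and 2 above, against 1.33% and 7.55% of all genes.

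Secreted recognition proteins were among the genes lower in all 6 libraries. The peptidoglycan recognition protein gene pglyrp6, whose product binds bacterial cell walls, was at 677, 1183 and 595 CPM in SBM and 767, 318 and 1399 CPM in D3, against 3941, 3198 and 5635 CPM in FM. The log2 difference was −2.37 ± 0.41 (edgeR adjusted p = 0.262, DESeq2 adjusted p = 0.000348). The C-reactive protein gene crp6 was at 1.09, 0.359 and 0.287 CPM in SBM and 0.886, 1.01 and 0.431 CPM in D3, against 5.47, 2.72 and 10.9 CPM in FM (−3.23 ± 0.53, edgeR adjusted p = 0.262). The groups did not overlap for either gene. Another member of the same family, crp2, was above FM in all 6 libraries, at 25.9 to 539 CPM (median 52.8) in SBM and D3 against 5.02 to 16.1 CPM in FM, and its highest values, 532 and 539, were in SBM 1 and D3 3, the libraries highest in oocyte genes. The log2 difference of crp2 was 1.95 without those 2 libraries and 4.27 with all 9.

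The genes cpt1ab, cpt1b and bbox1 were below FM in all 6 libraries. The carnitine palmitoyltransferase gene cpt1ab, which encodes the gate of mitochondrial fatty acid entry, was at 106, 123 and 135 CPM in SBM and 109, 128 and 86.8 CPM in D3, against 257, 216 and 210 CPM in FM (−0.99 ± 0.17, edgeR adjusted p = 0.262). Its muscle-type relative cpt1b was at 7.7 to 16.9 CPM (median 11.3) against 23.1 to 27.7 CPM in FM (−1.11 ± 0.25). The gene bbox1, for the last enzyme of carnitine synthesis, was at 24.2 to 40.8 CPM (median 34.5) against 59.2 to 75.4 CPM in FM (−1.02 ± 0.19). In the fatty acid oxidation list 4 of 44 tested genes lay below FM in all 6 libraries (9.09%, against 5.35% of all genes). They were cpt1ab, cpt1b, hadhb and acsl1a. The list's median was −0.22, or −0.0041 with library size alone, by which 3 lay below, against 1.33% of all genes.

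The other genes that the rule of smallest p named on the lower side had log2 differences of −1.50 to −0.71. The gene ydjc stood at 10.7, 9.11 and 9.26 CPM in SBM and 12.6, 8.46 and 9.64 CPM in D3, against 24.5, 24.6 and 31.8 CPM in FM (−1.44 ± 0.17, edgeR adjusted p = 0.0916). The cytochrome P450 gene cyp2k18 was at 32.8 to 59 CPM (median 45.7) in SBM and D3 and at 102 to 138 CPM in FM (−1.40 ± 0.20, adjusted p = 0.229). The vascular growth factor gene vegfaa was at 9.73 to 16.6 CPM (median 12.6) and at 21.7 to 30.3 CPM in FM (−1.07 ± 0.20). Both TRIM-family genes of the set, ftr58 (−1.14 ± 0.21) and btr02 (−0.96 ± 0.18), were lower as well, as were cuzd1.2 (−1.09 ± 0.21) and rgl1 (−0.71 ± 0.13). Of genes known only by an identifier, LOC110440163 was at 9.57 to 15 CPM against 24.9 to 45.1 CPM in FM (−1.50 ± 0.22), and si:ch211-39i22.1 at 151 to 212 CPM against 336 to 398 CPM in FM (−1.06 ± 0.16). Each of these genes was called lower by DESeq2, and none passed in edgeR.

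**Figure D1:**
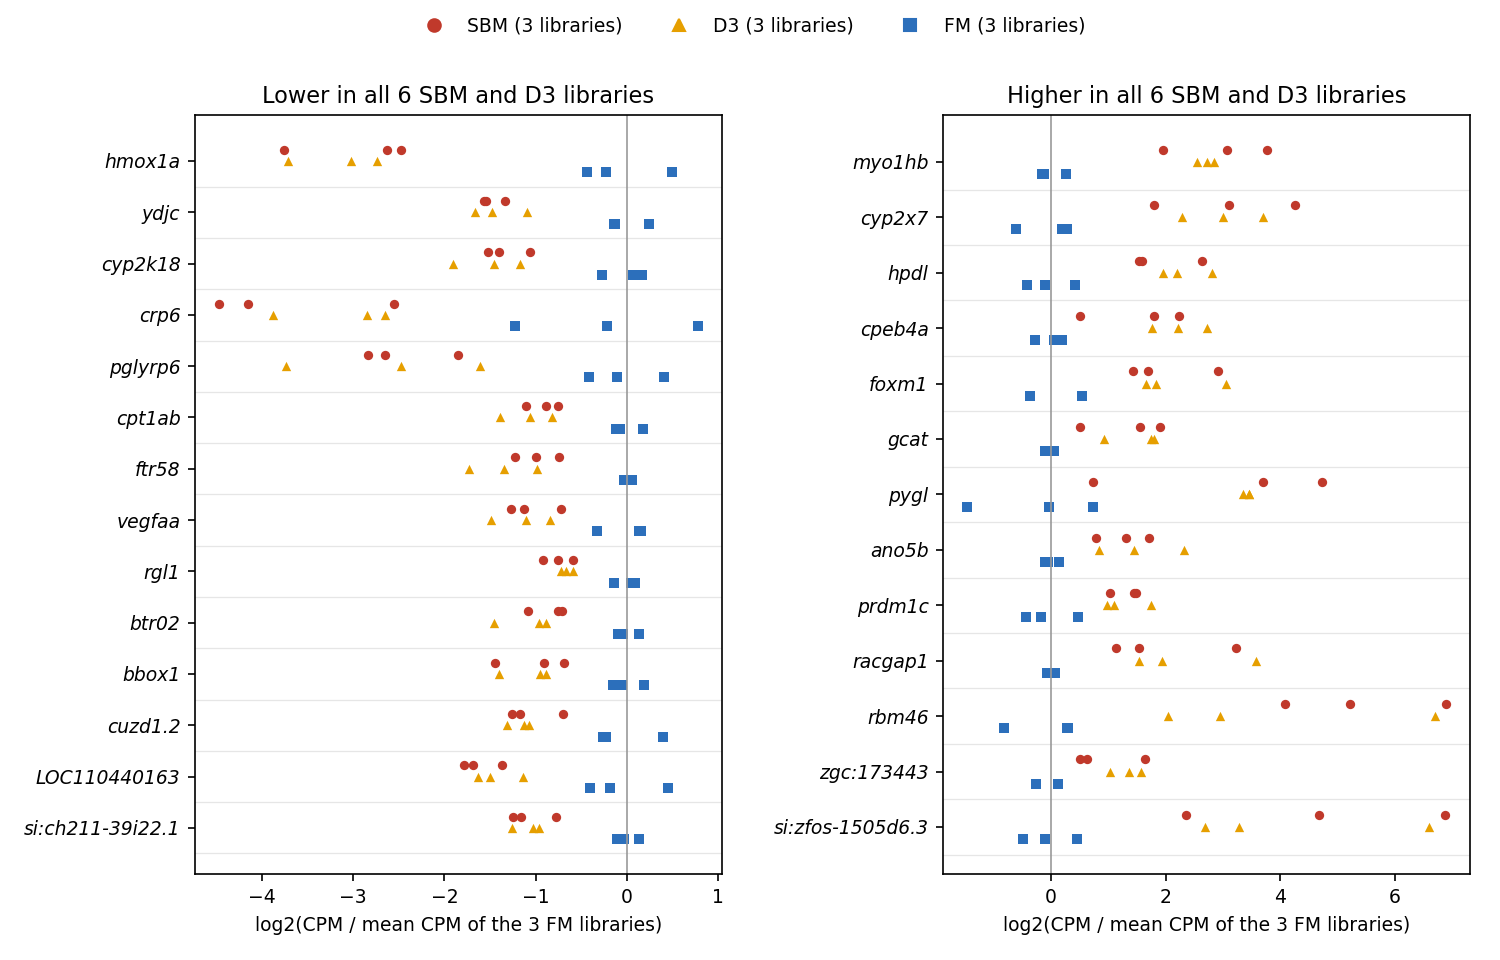
Level of the 27 genes named by smallest p in each library, as log2 of CPM over the mean CPM of the 3 FM libraries, with SBM as circles, D3 as triangles and FM as squares. In each row the 6 SBM and D3 points lie to one side of the 3 FM points, and the widest gap on the lower side is that of hmox1a.

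Interferon-stimulated genes were lower in SBM and D3 as a group of genes, although not every member took part. Of 42 tested, 37 had a negative log2 difference. At an unadjusted p under 0.05 in edgeR, 22 were lower (against 7.56% of all genes) and 0 higher. DESeq2 called 7 lower (against 1.66% of all genes), while edgeR called 0. All 6 libraries lay below FM for 12 of the 42 (28.6%, against 5.35% of all genes) and above FM for 0. The median was −0.67, or −0.41 with library size alone, by which 9 lay below, against 1.33% of all genes. The nucleotide kinase gene cmpk2 was at 4.31, 15.2 and 3.49 CPM in SBM and 6.09, 5.64 and 4.55 CPM in D3, against 30.3, 20 and 18.4 CPM in FM (−1.81 ± 0.43, edgeR adjusted p = 0.262). The transcription factor gene stat1b was at 43.8, 87 and 86.4 CPM in SBM and 95.8, 84.6 and 51 CPM in D3, against 213, 123 and 143 CPM in FM (−1.09 ± 0.29). The helicase gene helz2 was at 34.6 to 113 CPM (median 49.9) against 113 to 253 CPM in FM, where SBM 2 lay just below the lowest FM library (−1.43 ± 0.38), and the tetratricopeptide gene ifit11 at 5.42 to 13.1 CPM (median 8.54) against 16.7 to 22.2 CPM in FM (−1.11 ± 0.27).

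SBM 2 stood apart from the other 5 libraries for the antiviral effectors with the lowest values. The gene rsad2, whose product viperin blocks viral replication, was at 131 CPM in SBM 2 and 11.4 to 16.6 CPM in the other 5, against 74.5 to 201 CPM in FM. The gene ifit8 was at 37.1 CPM in SBM 2 and 3.88 to 8.6 CPM in the other 5, against 29.5 to 60.1 CPM in FM. Without SBM 2, edgeR called 7 genes lower (0.036%), and 4 of them were in this list: cmpk2 (−2.25 ± 0.25, adjusted p = 0.0429), rsad2 (−3.22 ± 0.31), ifit8 (−2.93 ± 0.32) and ifit10 (−2.27 ± 0.25). The others were the TRIM-family gene ftr73, hmox1a and the meprin gene mep1a.2. Without the 3 libraries highest in hepatocyte genes, of which SBM 2 is one, edgeR called 19 of the 42 lower and 0 higher, against 4.24% of all genes lower. That fit kept SBM 1, SBM 3 and D3 3, of which SBM 1 and D3 3 were highest in oocyte genes. The genes rsad2, ifit8, ifit10, ftr73, gbp1 and irf1b were chosen after their values were seen. FM 1 had the highest value of the 9 libraries for cmpk2, stat1b, helz2 and rsad2, so FM also varied.

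Other members overlapped between the groups. The guanylate-binding protein gene gbp1 was at 21.8 to 165 CPM in SBM and D3 and at 20.7 to 82.7 CPM in FM (0.39 ± 0.63), and the transcription factor gene irf1b at 158 to 474 CPM and at 175 to 349 CPM in FM (−0.09 ± 0.39). In the list of the immunoproteasome and MHC class I loading, 0 of 23 tested genes lay beyond FM in either direction. Over all genes the shares were 5.35% below and 5.03% above. An unadjusted p under 0.05 in edgeR was found for 0 of the 23, against 7.56% of all genes lower and 10.5% higher. DESeq2 called 0 of the 23. The list's median was −0.06, which library size alone turned to 0.19. Without FM 2 the median was −0.30 and without FM 3 it was 0.08. Whether the 2 lists differ was not tested.

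**Figure D2:**
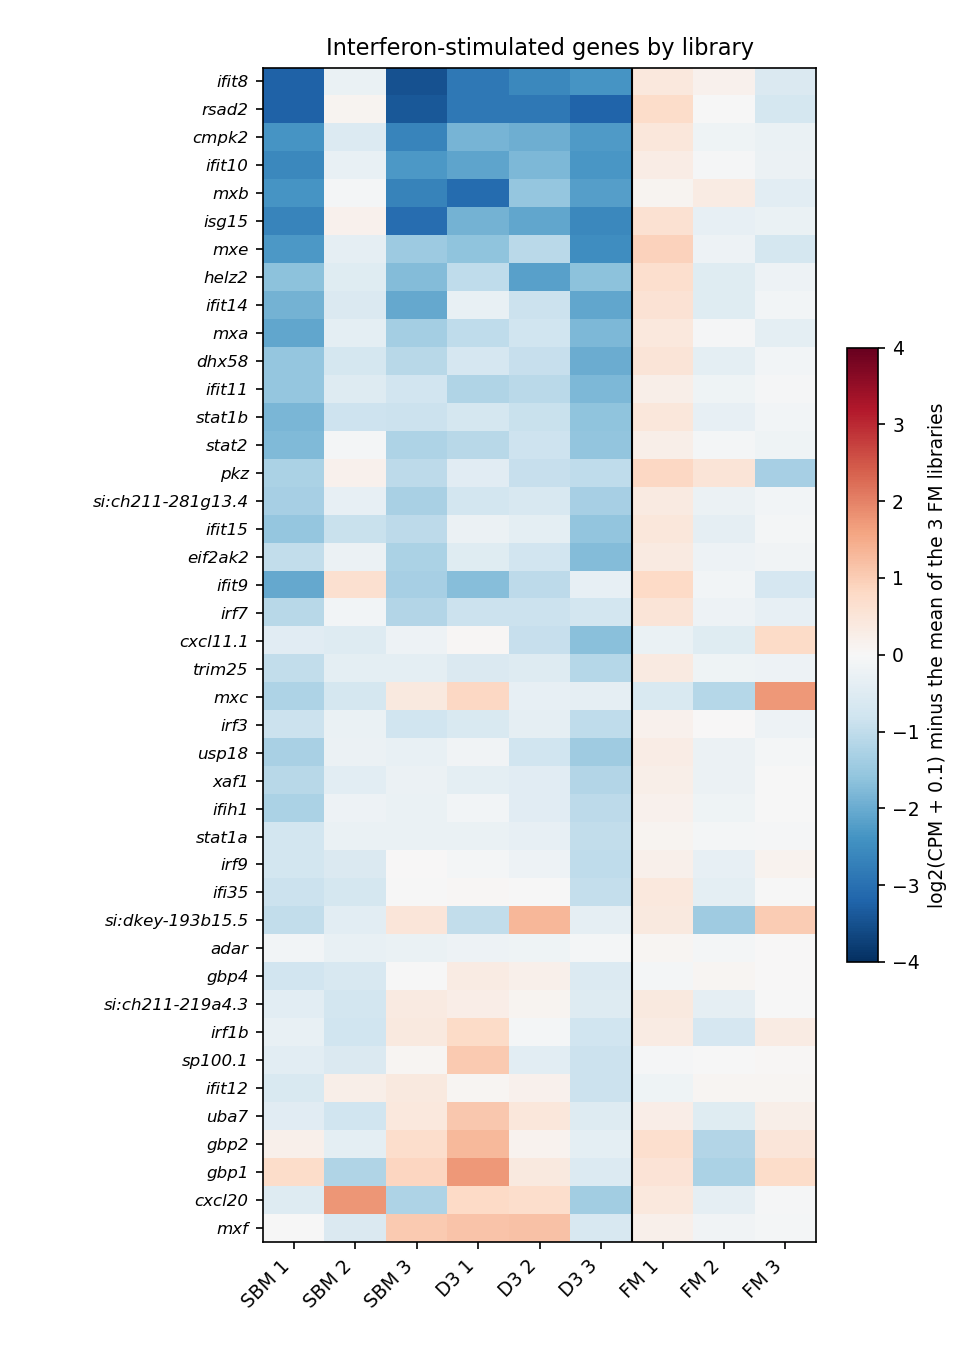
Interferon-stimulated genes (rows, ordered by log2 difference) in each library (columns), as log2(CPM + 0.1) minus the mean of the 3 FM libraries. The upper rows are blue in SBM 1, SBM 3 and the 3 D3 libraries and pale in SBM 2, and the lower rows, with gbp1 and mxf, show no common direction.

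Genes of the absorptive epithelium lay below FM in a larger share than genes at large. In the brush border list all 6 libraries were below FM for 16 of 35 tested genes and above for 0. The share below was 45.7%, against 5.35% of all genes. The median was −0.54 (−0.29 with library size alone, by which 4 lay below, against 1.33% of all genes). The gene baiap2l2a, for a protein that bends membranes, was at 57.4 to 130 CPM (median 89) against 161 to 183 CPM in FM (−0.93 ± 0.24). The protocadherin gene cdhr5b, whose product links neighbouring microvilli, was at 214 to 430 CPM (median 344) against 492 to 620 CPM in FM (−0.80 ± 0.25), and pls1, for the actin-bundling fimbrin, at 317 to 657 CPM (median 446) against 679 to 945 CPM in FM (−0.81 ± 0.25). The villin gene vil1 itself was 1 of the 16 (−0.59 ± 0.23). None of these genes passed in edgeR, and DESeq2 called 2 of the 35 lower and 0 higher, against 1.66% and 6.01% of all genes.

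Digestion and uptake of peptides showed the same side. Of 38 tested genes of peptide and amino acid transport and digestion, 13 lay below FM in all 6 libraries (34.2%) and 0 above. Over all genes the shares were 5.35% below and 5.03% above. The mean log2 CPM of the list's members, centred on the 9 libraries, was 0.379 in SBM 2, within the FM range of 0.226 to 0.459. The median was −0.62 (−0.36 with library size alone, by which 9 lay below, against 1.33% of all genes). DESeq2 called 9 lower (against 1.66% of all genes). The aminopeptidase gene anpepb was at 2727, 4252 and 3285 CPM in SBM and 3100, 3255 and 1623 CPM in D3, against 5654, 6805 and 6405 CPM in FM (−1.05 ± 0.27, edgeR adjusted p = 0.262). The meprin genes mep1a.1 and mep1a.2, for brush border metalloproteases, had differences of −1.15 ± 0.29 and −1.15 ± 0.28. They are paralogues, and how reads were split between such genes is not stated in the sources used here. The glutamate transporter gene slc1a1 was at 89.5 to 202 CPM (median 114) against 267 to 325 CPM in FM (−1.17 ± 0.27). The main peptide transporter gene slc15a1b overlapped between the groups, at 135 to 442 CPM (median 196) and at 195 to 420 CPM in FM (−0.31 ± 0.40).

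The absorptive enterocyte list, which shares genes with those of the brush border and of peptide digestion, had 15 of 47 tested genes below FM in all 6 libraries (31.9%) and 0 above. Its median was −0.60 (−0.36 with library size alone, by which 8 lay below). The chloride-bicarbonate exchanger gene slc26a3.2 was at 131, 196 and 126 CPM in SBM and 195, 166 and 85.8 CPM in D3, against 279, 313 and 379 CPM in FM (−1.11 ± 0.26). The lipid absorption list was less uniform, with 5 of 47 below (10.6%) and 1 above (2.13%), against 5.35% and 5.03% of all genes. Among those below was apoa1a, for the main protein of high-density lipoprotein. It was at 1532 to 6045 CPM (median 2756) against 6464 to 9703 CPM in FM (−1.30 ± 0.38). For the lipid absorption list library size alone gave 4 below and 1 above, and a median of −0.10 in place of −0.35. The carotenoid and vitamin A list had 6 of 32 below (18.8%), with bco1, for the enzyme that splits beta-carotene (70 to 201 CPM, against 259 to 446 CPM in FM) and with the retinoic acid hydroxylase gene cyp26b1 (0.356 to 0.885 CPM, against 1.29 to 2.08 CPM in FM). With library size alone that list had 4 below and 1 above, and a median of −0.013 in place of −0.29. By that scaling 1.33% of all genes lay below FM and 7.55% above. The sum of the absorptive enterocyte list took 2.65 to 5.67% of the counts in SBM and D3 and 4.64 to 6.29% in FM, so the groups overlapped in the list's total.

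Bile acid transporters marked the ileal part of the list of lysosome-rich and ileal enterocytes, the cells that take up bile acids and whole protein. All 6 libraries lay below FM for 11 of 47 tested genes (23.4%) and above for 1 (2.13%), against 5.35% and 5.03% of all genes. The sum of the list took 5.87% of the counts in SBM 3, above the 3.83 to 4.68% of FM. In the other SBM and D3 libraries it took 2.34 to 3.33%. The mean log2 CPM of the list's members, centred on the 9 libraries, was 0.167 in SBM 2, within the FM range of 0.14 to 0.36. The median was −0.47 (−0.20 with library size alone, by which 2 lay below, against 1.33% of all genes). The uptake transporter gene slc10a2 was at 362, 577 and 564 CPM in SBM and 316, 487 and 364 CPM in D3, against 957, 1004 and 695 CPM in FM (−0.99 ± 0.24, edgeR adjusted p = 0.262). The export transporter subunit gene slc51a was at 42.6, 70.9 and 45.2 CPM in SBM and 47.4, 54.9 and 38.6 CPM in D3, against 143, 114 and 84.1 CPM in FM (−1.19 ± 0.23). For both, every SBM and D3 library was below every FM library. The lysosomal mannosidase gene man2b1 was at 343 to 724 CPM (median 462) against 790 to 1021 CPM in FM (−0.85 ± 0.24).

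Ion and drug transporters followed. Of 51 tested genes of the sodium pump and ion transport, 10 lay below FM (19.6%) and 1 above (1.96%), among them the sodium pump genes atp1a1a.4 (616 to 835 CPM, against 953 to 1278 CPM in FM) and atp1a1a.5 (4.04 to 7.89 CPM, against 11 to 11.9 CPM in FM), which are paralogues. Library size alone gave 5 below and 5 above, and a median of −0.09 in place of −0.33. Of 66 tested phase II enzymes and xenobiotic sensors and transporters, 14 lay below (21.2%) and 0 above, with a median of −0.50 (−0.25 with library size alone, by which 3 lay below). The drug exporter gene abcg2b was at 37, 68.3 and 73.2 CPM in SBM and 40.9, 36.5 and 43.4 CPM in D3, against 91.7, 161 and 157 CPM in FM (−1.45 ± 0.29), and abcb4, of the P-glycoprotein family, at 463 to 831 CPM (median 596) against 1102 to 1398 CPM in FM (−0.95 ± 0.21). The cytochrome P450 list was mixed: 4 of 45 lay below (8.89%, against 5.35% of all genes), cyp2k18 and cyp3a65 (−1.06 ± 0.28) among them. Of the 45, 1 lay above (2.22%, against 5.03% of all genes), cyp2x7. With library size alone 2 of that list lay below and 2 above. By that scaling 1.33% of all genes lay below FM and 7.55% above.

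**Figure D3:**
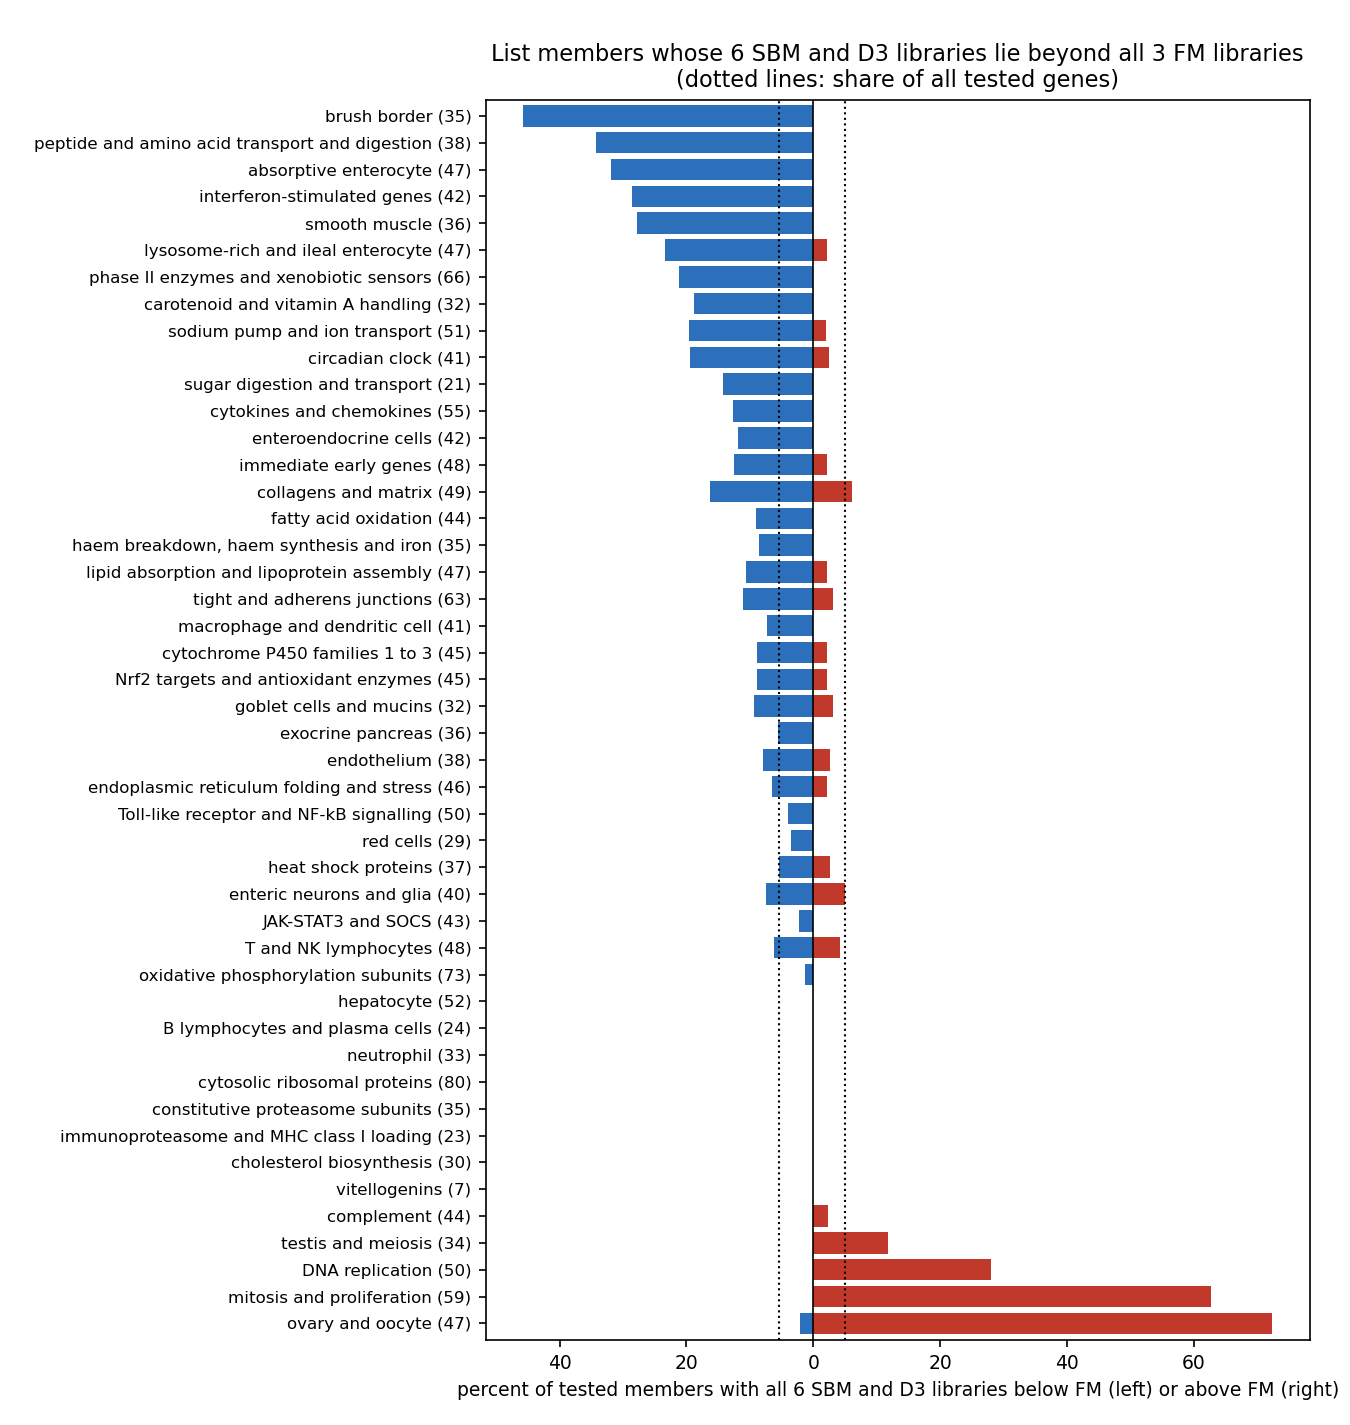
With TMM scaling, share of the tested members of each of 46 gene lists (number tested in brackets) with all 6 SBM and D3 libraries below FM, drawn to the left, or above FM, drawn to the right, in percent. Dotted lines mark the 5.35% and 5.03% of all tested genes, and the longest bars are the brush border list on the left (45.7%) and the ovary and oocyte list on the right (72.3%).

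Muscle and hormone genes of the gut wall were also on the lower side. In the smooth muscle list 10 of 36 tested genes lay below FM in all 6 libraries (27.8%) and 0 above, with a median of −0.40 (−0.13 with library size alone, by which 1 lay below). The desmin gene desmb was at 98.8 to 144 CPM (median 118) against 173 to 200 CPM in FM (−0.66 ± 0.16), and the transgelin gene tagln at 167 to 291 CPM (median 223) against 298 to 389 CPM in FM (−0.65 ± 0.20). In the enteroendocrine list 5 of 42 lay below (11.9%, against 5.35% of all genes). Among them were the secretogranin genes scg2b (−0.92 ± 0.25) and scg3 (−0.68 ± 0.19) and the neuropeptide gene adcyap1a (−0.89 ± 0.28). With library size alone 0 of the 42 lay below, and the median was −0.24 in place of −0.50. The list of collagens and matrix had 8 of 49 below (16.3%) and 3 above (6.12%), against 5.35% and 5.03% of all genes. The collagen VI genes col6a1 (−0.65 ± 0.16) and col6a2 (−0.58 ± 0.18) were on the lower side and col6a4a (1.90 ± 0.49) on the higher side. With library size alone 0 lay below and 4 above, and the median was 0.05 in place of −0.20. By that scaling 1.33% of all genes lay below FM and 7.55% above.

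Clock genes, whose levels follow the time of day, and immediate early genes were lower in part. The light-responsive clock gene per2 was at 33, 33 and 33 CPM in SBM and 31.3, 27.9 and 26.7 CPM in D3, against 41.3, 49.7 and 53.4 CPM in FM (−0.64 ± 0.14, edgeR adjusted p = 0.262). The clock output gene tefa was at 61.6 to 102 CPM (median 74.2) against 125 to 152 CPM in FM (−0.79 ± 0.19). All 6 libraries lay below FM for 8 of 41 circadian genes (19.5%) and above for 1 (2.44%), with a median of −0.12 that library size alone turned to 0.17, by which 2 lay below. In the immediate early list 6 of 48 lay below (12.5%) and 1 above (2.08%), against 5.35% and 5.03% of all genes. The median was −0.44. Library size alone gave 1 below and 1 above, and a median of −0.17. By that scaling 1.33% of all genes lay below FM and 7.55% above. The phosphatase gene dusp5 was at 7.07 to 12.6 CPM (median 9.37) against 15.1 to 21.9 CPM in FM (−0.92 ± 0.21), and the stress-responsive atf3 at 18.1 to 49.2 CPM against 44.7 to 133 CPM in FM (−1.45 ± 0.37), with overlap. The time of sampling is not given in the labels.

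Of the 46 lists, those of the ovary and of mitosis had the largest shares of members above FM. In the mitosis and proliferation list 58 of 59 tested genes had a positive log2 difference, with a median of 2.20. All 6 libraries lay above FM for 37 (62.7%, against 5.03% of all genes). At an unadjusted p under 0.05 in edgeR, 57 were higher (against 10.5% of all genes). After adjustment edgeR called 0, while DESeq2 called 50 higher (against 6.01% of all genes). The transcription factor gene foxm1, which drives mitotic genes, was at 17.5, 7.51 and 6.25 CPM in SBM and 7.34, 8.27 and 19.2 CPM in D3, against 3.36, 1.81 and 1.81 CPM in FM (2.24 ± 0.48, edgeR adjusted p = 0.262). The cytokinesis gene racgap1 was at 22.9, 5.36 and 7.11 CPM in SBM and 9.39, 7.12 and 29.2 CPM in D3, against 2.47, 2.33 and 2.56 CPM in FM (2.46 ± 0.62). The proliferation marker gene mki67 was at 60.8, 22.1 and 43.6 CPM in SBM and 63.6, 48.2 and 67.2 CPM in D3, against 23.2, 12 and 19.4 CPM in FM (1.48 ± 0.37), where SBM 2 alone lay within the FM range. DNA replication genes had 14 of 50 above FM (28%) and 0 below, with a median of 1.18, among them cdc45 (2.62 ± 0.78) and prim1 (1.34 ± 0.42).

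The highest values of foxm1 and racgap1 were in SBM 1 and D3 3, the libraries highest in oocyte genes. Without those 2 libraries the median of the mitosis list was 1.21 and 38 of the 59 genes had every remaining library above FM (against 6.11% of all genes above and 6.04% below), and the median of DNA replication was 0.57, with 14 of the 50 above. The mitosis list took 0.438, 0.0471 and 0.13% of the counts in SBM and 0.113, 0.097 and 0.496% in D3, against 0.0361 to 0.047% in FM, the highest FM value lying just below the lowest of the 6.

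Ovary and oocyte genes were above FM in all 6 libraries for 34 of 47 tested genes (72.3%) and below for 1 (2.13%). Over all genes the shares were 5.03% above and 5.35% below. The median of the list was 4.02. DESeq2 called 42 higher (against 6.01% of all genes), while edgeR called 0. The germ cell gene piwil1, whose product silences transposons, was at 60.5, 15.5 and 4.88 CPM in SBM and 2.41, 3.15 and 47.6 CPM in D3, against 0.956, 1.06 and 0.194 CPM in FM (4.92 ± 1.38). The egg coat gene zp3c was at 318, 13.2 and 39 CPM in SBM and 11.8, 21.9 and 325 CPM in D3, against 5.34, 5.41 and 3.53 CPM in FM (4.67 ± 1.43), and the germ cell RNA-binding gene dazl at 1.5 to 39.2 CPM (median 4.58) against 0.259 to 1.22 CPM in FM (3.93 ± 1.20). Without SBM 1 and D3 3 the median was 1.69, and 34 of the 47 had every remaining library above FM (against 6.11% of all genes). The sex of the fish is not given in the labels.

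**Figure D4:**
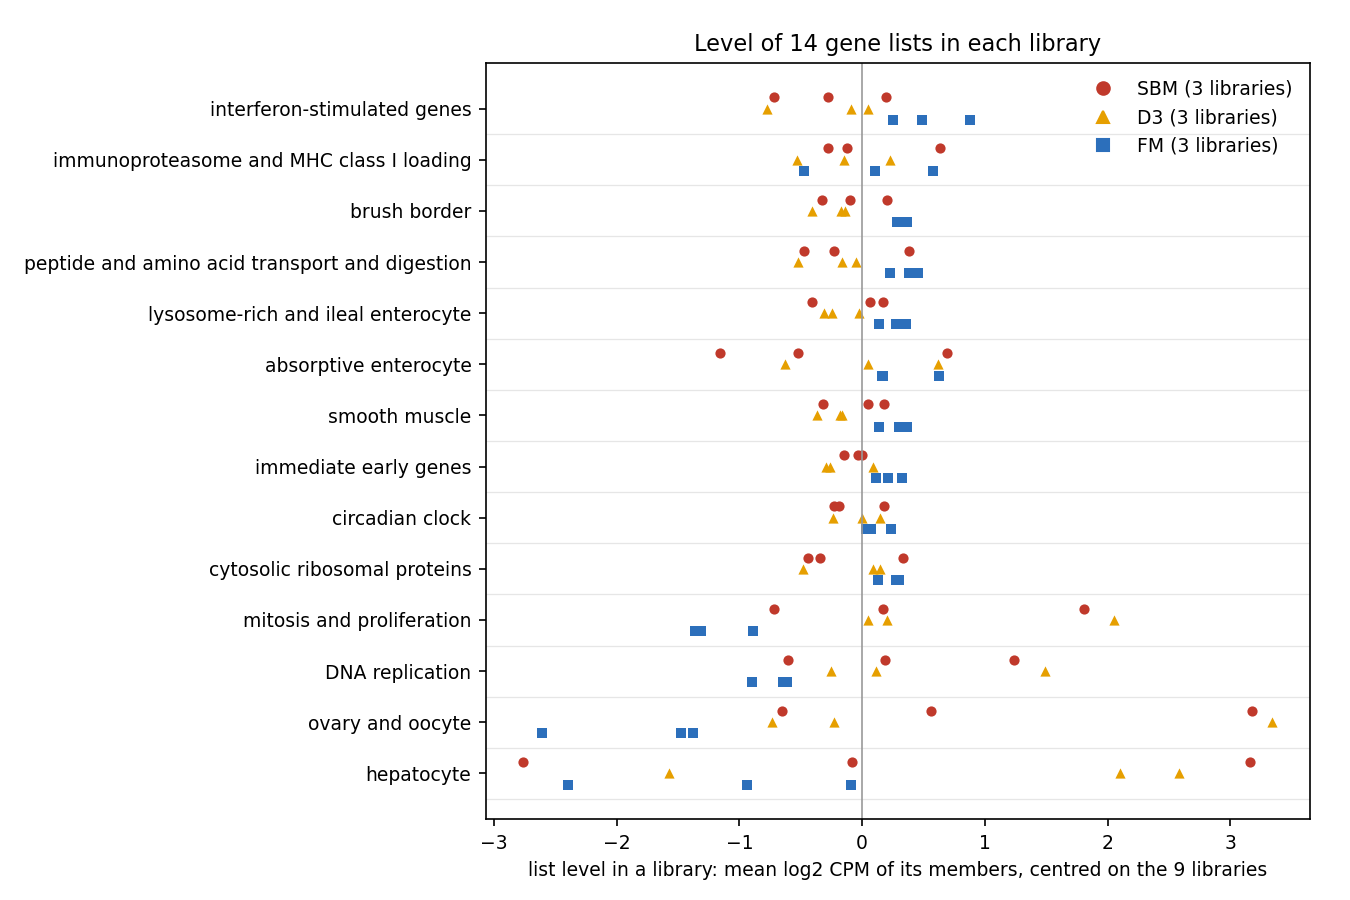
Level of 14 gene lists in each library, as the mean log2 CPM of the list's members centred on the 9 libraries, with SBM as circles, D3 as triangles and FM as squares. All 6 SBM and D3 points lie below FM for interferon-stimulated, brush border and immediate early genes and above FM for mitosis, DNA replication and ovary and oocyte genes, while hepatocyte points of SBM and D3 fall on both sides of FM.

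The genes named by smallest p on the higher side included several with roles outside division. Levels of myo1hb, for an unconventional myosin, were 2.13, 3.46 and 0.981 CPM in SBM and 1.66, 1.48 and 1.82 CPM in D3, against 0.231, 0.302 and 0.227 CPM in FM (2.90 ± 0.46, edgeR adjusted p = 0.262). The cytochrome P450 gene cyp2x7 was at 33.2, 14.9 and 6.03 CPM in SBM and 8.47, 14 and 22.6 CPM in D3, against 1.98, 2.11 and 1.13 CPM in FM (3.24 ± 0.59). The glycogen phosphorylase gene pygl was at 68.1, 140 and 8.81 CPM in SBM and 53.6, 58 and 58 CPM in D3, against 5.14, 8.79 and 1.91 CPM in FM (3.61 ± 0.83), so SBM 3 was just above FM 2. In these 3 genes the largest value was in SBM 1 or SBM 2. For cyp2x7 the highest values were in SBM 1 and D3 3, the libraries highest in oocyte genes. Without those libraries the differences of myo1hb, cyp2x7 and pygl were 2.885, 2.638 and 3.626.

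The translational regulator gene cpeb4a was at 9 to 41.9 CPM (median 25.6) in SBM and D3 and at 5.18 to 7.25 CPM in FM (2.01 ± 0.43), and gcat, for an enzyme of threonine breakdown, at 10.3 to 27.1 CPM (median 22.7) and at 6.7 to 7.52 CPM in FM (1.49 ± 0.32). The remaining named genes were hpdl (2.19 ± 0.41), ano5b (1.49 ± 0.36), prdm1c (1.32 ± 0.33) and the germ cell RNA-binding gene rbm46 (5.51 ± 1.40), with zgc:173443 (1.18 ± 0.29) and si:zfos-1505d6.3 (5.44 ± 1.35) known by identifiers only. The level of rbm46 was 0.222 to 6.36 CPM against 0.0302 to 0.0659 CPM in FM. DESeq2 called each of these higher, and none passed in edgeR. For hpdl, gcat, ano5b, rbm46 and si:zfos-1505d6.3 the highest values were in SBM 1 and D3 3, the libraries highest in oocyte genes. Without those libraries their differences were 1.84, 1.27, 1.12, 3.97 and 3.56. Those of cpeb4a, prdm1c and zgc:173443 were then 2.01, 1.27 and 1.09.

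Hepatocyte, complement and vitellogenin genes had high medians of 3.13, 3.04 and 7.01 without a shared separation. All 6 libraries lay above FM for 0 of 52 hepatocyte genes, 1 of 44 genes of the complement list (2.27%) and 0 of 7 vitellogenin genes. Over all genes the share was 5.03%. The 1 gene of the complement list was crp2, of the C-reactive protein family. DESeq2 called 24 genes of the hepatocyte list, 20 of the complement list and 4 vitellogenin genes higher, against 6.01% of all genes. The coagulation factor gene f5, made in the liver, was at 13.5, 125 and 0.742 CPM in SBM and 46.8, 126 and 4.36 CPM in D3, against 3.99, 4.56 and 1.78 CPM in FM (3.94 ± 1.50). The yolk precursor gene vtg1 was at 48.7, 2245 and 24.7 CPM in SBM and 29.4, 26957 and 8.32 CPM in D3, against 24.6, 49.5 and 38.9 CPM in FM. For hepatocyte and complement genes the highest shares of the counts were in SBM 2, D3 1 and D3 2. Vitellogenin genes were highest in SBM 2 and D3 2, at 0.371 and 4.81% of the counts. Their share in D3 1, 0.00507%, lay within the FM range of 0.00376 to 0.00779%. Without SBM 2, D3 1 and D3 2 the hepatocyte median was −0.28, the complement median 0.12 and the vitellogenin median −0.34. Exocrine pancreas genes took 10 to 20.2% of the counts in SBM and D3 and 17.9 to 22.8% in FM. Of 36 tested members 2 lay below FM in all 6 libraries (5.56%), near the 5.35% of all genes. Yet 32 of the 36 had a negative difference, with a median of −0.60 (−0.37 with library size alone). At an unadjusted p under 0.05 in edgeR, 15 were lower, against 7.56% of all genes, and 2 were higher.

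SBM and D3 were then set against each other. SBM 1 was more like D3 3 (Spearman correlation over genes 0.975) than like SBM 2 and SBM 3 (0.869 and 0.92), and D3 3 correlated at 0.853 and 0.865 with D3 1 and D3 2. An exchange of samples between SBM and D3 would change every D3 over SBM value. The edgeR contrast of D3 over SBM called 0 of 19450 genes (0%), with 145 higher (0.746%) and 257 lower (1.32%) at an unadjusted p under 0.05. For the 27 genes the log2 difference of D3 over SBM lay between −0.58 and 0.61. These genes were chosen in a fit that counts a difference between SBM and D3 as residual spread, so the choice itself favours small values of D3 over SBM, which are given as a description. The 95% interval stayed within 1 log2 unit on either side of 0 for 13 of the 27, and for the other genes it reached beyond a 2-fold difference. For ydjc the interval was −0.45 to 0.61 and for cpt1ab −0.69 to 0.35, whereas for pglyrp6 it was −1.25 to 1.29 and for pygl −2.37 to 1.66. The differences of SBM and of D3 from FM share the FM libraries, and for pglyrp6 they were −2.38 ± 0.55 and −2.36 ± 0.55, for stat1b −1.14 and −1.05, for slc10a2 −0.82 and −1.19, and for mki67 1.21 and 1.71.

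**Figure D5:**
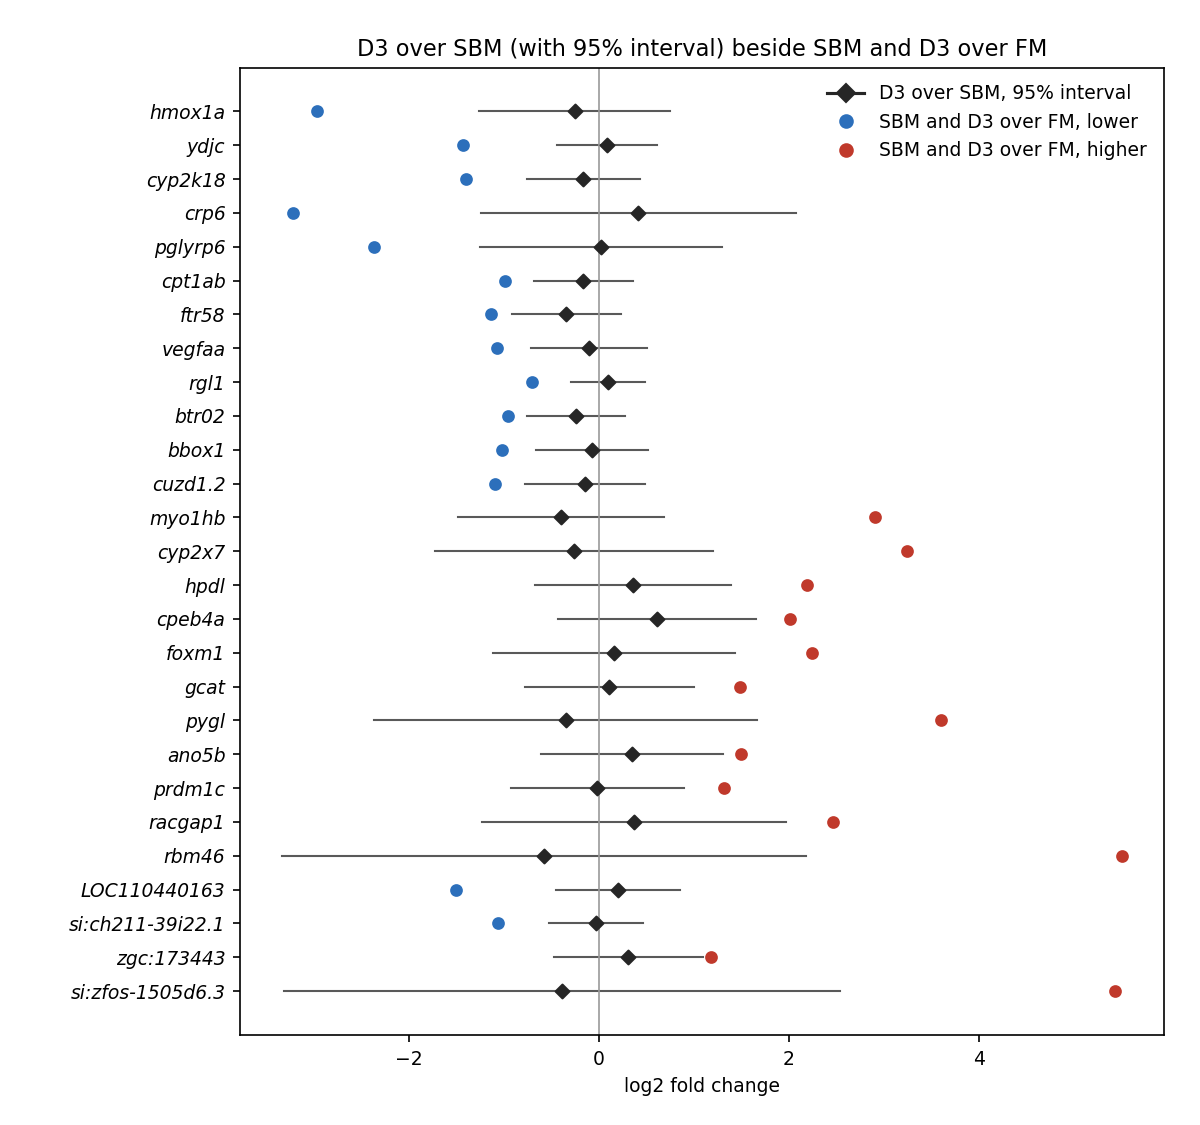
For the 27 genes named by smallest p, the log2 difference of D3 over SBM (diamonds, with the 95% interval as a line) beside the log2 difference of SBM and D3 over FM (circles). The diamonds lie between −0.58 and 0.61, and the circles lie beyond them on either side, with 13 of the 27 intervals held within 1 log2 unit of 0.

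Genes often measured in fish enteritis showed little that SBM and D3 shared. Of a panel of 14 genes of inflammation and barrier, il6 was too low to test, with 27 counts over the 9 libraries, and none of the other 13 passed in edgeR. Apart from hmox1a, the single gene with all 6 libraries below FM was the neutrophil chemokine gene cxcl8a, at 3.53, 5.32 and 6.46 CPM in SBM and 6.15, 6.52 and 1.73 CPM in D3, against 9.33, 8.34 and 12.2 CPM in FM (−1.01 ± 0.38, edgeR adjusted p = 0.262). Levels of tnfa, for tumour necrosis factor, were 0.52 to 2.58 CPM and 1.36 to 3.85 CPM in FM (−1.14 ± 0.52), and those of the interleukin gene il1b 2.9 to 26.9 CPM and 5.28 to 5.99 CPM in FM (0.87 ± 0.60), with overlap in both. The log2 differences of il10, mmp9, ptgs2a and nos2a were 0.47 ± 0.81, 0.66 ± 0.47, −0.72 ± 0.57 and 0.11 ± 0.41. For mmp9 the value over the same FM libraries was 0.0072 ± 0.42 for SBM and 1.10 ± 0.43 for D3. Its D3 over SBM value was 1.09 (95% interval 0.051 to 2.14), which edgeR did not call after adjustment. Single libraries moved several of these values. The il10 difference was −0.06 without FM 2 and 1.80 without FM 3, and that of nos2a −0.23 without FM 1 and 0.51 without FM 2. The mmp9 difference was 0.34 without FM 1, that of ptgs2a −1.12 without D3 1 and −0.40 without FM 1, and that of il1b 0.33 without D3 1 and −0.03 without the 3 libraries highest in hepatocyte genes. Those of tjp1a, oclna, rela, tgfb1a and myd88 were −0.16, −0.15, −0.17, −0.14 and −0.02, and library size alone turned all 5 positive.

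Other cytokine genes were lower in all 6 libraries. In the list of cytokines and chemokines 7 of 55 tested genes lay below FM (12.7%, against 5.35% of all genes) and 0 above, with a median of −0.27. Library size alone gave 3 below and 2 above, against 1.33% and 7.55% of all genes, and a median of −0.02. The interleukin gene il22, whose product maintains the epithelium, was at 1.55, 1.34 and 2.87 CPM in SBM and 2.6, 2.11 and 0.743 CPM in D3, against 5.34, 3.87 and 7.25 CPM in FM (−1.55 ± 0.40). The chemokine genes ccl34b.1 (−1.52 ± 0.33), ccl20a.3 (−1.05 ± 0.31) and cxcl19 (−0.91 ± 0.27) were lower as well. For il22 the lowest FM library was above the highest SBM or D3 library.

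Immune cell markers shared little separation. All 6 libraries lay beyond FM for 0 of 33 neutrophil genes and 0 of 24 B lymphocyte genes. The same held for 3 of 41 macrophage and dendritic cell genes, all below (7.32%), and 5 of 48 T and NK lymphocyte genes. Of the T and NK genes 3 lay below (6.25%) and 2 above (4.17%). Over all genes the shares were 5.35% below and 5.03% above. Of the 5 T and NK genes, the co-receptor gene cd8a was below FM, at 1.55 to 3.5 CPM (median 2.81) against 4.35 to 7.09 CPM in FM (−1.01 ± 0.31). The transcription factor genes lef1 and eomesa were above FM and highest in SBM 1 and D3 3, with 9.34 and 9.04 CPM of lef1 against 0.0324 to 0.297 CPM in FM. Cytosolic ribosomal protein genes differed little but in 1 direction: 79 of 80 had a negative difference, with a median of −0.33 (−0.09 with library size alone), and 0 lay beyond FM in all 6 libraries. Without the 3 libraries highest in hepatocyte genes, edgeR called 68 of the 80 lower, against 4.24% of all genes. That fit kept both libraries highest in oocyte genes, SBM 1 and D3 3.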

How the data were processed

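RNA of 9 zebrafish intestine samples was sequenced after extraction with a Qiagen RNeasy kit and library preparation with a SMARTer mRNA kit, per the labels' protocols. The authors deposited raw whole-number counts per gene, and an FPKM table, scaled to gene length and library total. The deposited FPKM equal the counts over 1 length per gene and the library total, within 0.00012%, and served only as alternatives. The aligner, counter, genome build and strand setting are not stated in the sources used here, so reads of overlapping or near-identical genes may be mixed. All columns of both tables were mapped to a sample by its title.

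The analysis of the counts used edgeR 4.0.16 in R 4.3.3. FilterByExpr with a minimum count of 10 kept 19450 of 26983 genes and removed 7533. TMM factors ran from 0.846 to 1.204, and CPM use TMM-scaled library sizes. A quasi-likelihood fit had 1 mean for the 6 SBM and D3 libraries and 1 for FM, with 7 residual degrees of freedom and a common dispersion of 0.24. Tests were two-sided, and a call needed a Benjamini-Hochberg adjusted p under 0.05. A log2 difference is SBM and D3 over FM, and its SE is its size over the root of the F statistic. The D3 over SBM contrast came from a fit with 3 means and 6 residual degrees of freedom. DESeq2 1.42.0 and limma 3.58.1 were alternatives. The scripts were tested on simulated data. Depth limits counting error only, because no molecular identifiers were counted.

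Named genes had a mean of at least 1 CPM and no overlap between the groups: the 12 with the smallest p in each direction, and 2 known by an identifier in each direction, of which 1 gene is not reported here. In each list up to 4 members with the smallest p were named, with a panel of 14 genes. The 46 lists hold 2258 entries. A symbol match was found for 2014 of them and a synonym for 94, while 4 were ambiguous and 146 unmatched. Of 1858 tested genes, 101 stand in more than 1 list. The comparison, the lists and the panel were chosen with earlier results of these data known. Since the named genes were picked for their p and separation, their values describe them and are no second test. Lists are described by counts and medians, beside the same over all genes.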

Additional observations from a re-analysis of the deposited data

Results flagged for a closer look

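Of 39 genes examined for a library far from the other 5 SBM and D3 libraries, 1 stood out. The glycogen phosphorylase gene pygl was at 8.81 CPM in SBM 3, while the other SBM and D3 libraries were at 53.6 to 140 CPM and FM at 1.91 to 8.79 CPM. On the log2 CPM scale, the gap of SBM 3 to the nearest of the others was a larger part of the whole range than the 95% limit of Dixon's test allows for 6 values. Chance alone marks about 1 in 20 such groups.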

How the results depend on the processing

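The edgeR count of 0 higher and 0 lower genes held with library size alone, 3 group means, no filter on low counts and a minimum count of 30. It also held without the 2 libraries highest in oocyte genes. Limma-voom and limma on both FPKM scales called 0 higher and 0 lower as well. DESeq2 called 1168 higher and 323 lower, and limma-voom with group weights 2 lower. Without the 3 libraries highest in hepatocyte genes edgeR called 2069 higher and 825 lower, in a fit that kept both oocyte-high libraries, SBM 1 and D3 3. Alternatives chosen after seeing the data ran DESeq2 without those sets: 661 higher and 276 lower without the oocyte-high libraries, 3605 and 1393 without the hepatocyte-high ones. The cause of these shifts was not tested. Leaving out 1 library at a time gave 0 higher genes each time and 0 to 7 lower, with 937 to 1842 genes wholly above FM and 1160 to 1827 below. Fewer libraries make such separation easier at fixed CPM, but TMM factors were refitted for each subset. Without SBM 1 and without D3 3, 937 and 950 genes lay above FM, fewer than the 979 of the main fit. Leaving out the hepatocyte-high set gave 3961 above and 3647 below, and leaving out the oocyte-high set 1189 and 1174. Library size alone gave 1469 above and 258 below.

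Deviations of same-numbered libraries correlated at 0.0733, 0.183 and 0.288 for SBM with FM, and those of differently numbered libraries at −0.34 to 0.0857. For D3 with FM the same-numbered values were −0.0685, 0.0209 and −0.0704, and the others −0.0323 to 0.0933. For SBM with D3 the same-numbered values were −0.578, 0.519 and −0.0305, and the others −0.651 to 0.708. Whether replicate numbers pair the libraries was not tested. With the replicate block edgeR called 1 gene lower, hmox1a (adjusted p = 0.00681), and 0 higher.

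For 214 named genes, 4212 of 4491 alternative values kept direction and side of the threshold, 243 passed it and 36, in 12 genes, reversed. Without the 3 hepatocyte-high libraries these were vtg6 (−0.34), vtg7 (−0.27), vtg1 (−0.48), il1b (−0.032), myd88 (0.068) and oclna (0.0235). With library size alone they were tgfb1a (0.11), myd88 (0.27), rela (0.089), tjp1a (0.12) and oclna (0.13). Limma on log2(FPKM + 1) gave 0.060, 0.24, 0.054, 0.091 and 0.067 for these 5, and on log2(FPKM + 0.1) 0.096, 0.26, 0.063, 0.10 and 0.067, with mhc1uka at 0.18. Without the oocyte-high libraries they were tgfb1a (0.030), myd88 (0.052) and rela (0.032). The gene myd88 also reversed with DESeq2 (0.020), limma-voom (0.0031), its group weights (0.012) and the replicate block (0.0035). Leaving out 1 library, il10 ran from −0.056 to 1.80, nos2a from −0.23 to 0.51 and myd88 from −0.21 to 0.12. The cause was not tested. For the 27 genes named by smallest p, 567 of 567 values kept their sign. Those genes were picked for full separation in the same libraries, which makes a kept sign likely, so this is no test of them. Of 598 list medians, 557 moved by less than the spread between libraries and 41 by more, and 34, in 19 lists, changed sign, 13 of them with library size alone. Counting depth limits the lowest genes.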

Other observations

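A stricter count asked for all 6 SBM and D3 libraries to lie at least 2-fold beyond the nearest FM library. Of the 16351 genes with a mean of at least 1 CPM, 21 were that far above FM and 4 that far below. The 4 below were hmox1a, crp6, pglyrp6 and LOC100331045, the last at 0.261 to 0.933 CPM against 1.9 to 2.56 CPM in FM. The 21 above include germ cell and division genes such as piwil1, tdrd5, zp3c, racgap1 and bub1bb, a mitotic checkpoint gene at 2.77 to 13.1 CPM against 1 to 1.22 CPM in FM. They also include pfkma, for muscle-type phosphofructokinase, at 0.609 to 22 CPM against 0.0659 to 0.211 CPM in FM, and the tubulin gene tube1, at 0.603 to 2.54 CPM against 0.264 to 0.291 CPM. These genes were chosen after their values were seen, and none passed in edgeR.

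Heat shock, antioxidant and unfolded protein genes had medians near 0 (−0.02, −0.16 and 0.05). Each list held single genes below FM in all 6 libraries and 1 above (2.7, 2.22 and 2.17%, against 5.03% of all genes). At an unadjusted p under 0.05 in edgeR, 4, 2 and 4 genes were higher and 6, 6 and 3 lower, against 10.5% and 7.56% of all genes. The genes given here are from the lower side only. The heat shock gene hsp70l was at 1.03 to 4.15 CPM against 5.07 to 9.61 CPM in FM (−1.53 ± 0.43). The autophagy receptor gene sqstm1 was at 82.7 to 113 CPM against 140 to 181 CPM in FM (−0.70 ± 0.17), and nfe2l2a, which encodes the Nrf2 transcription factor, at 134 to 288 CPM against 296 to 343 CPM in FM (−0.65 ± 0.24). Its inhibitor gene keap1a was lower too (−0.76 ± 0.23). The unfolded protein gene ddit3 was at 27.7 to 63.9 CPM against 71 to 78.5 CPM in FM (−0.71 ± 0.28). The shares of these lists below FM were 5.41, 8.89 and 6.52%, against 5.35% of all genes, and library size alone moved the medians to 0.26, 0.10 and 0.30. The heat shock median was −0.05 without D3 1 and 0.03 without FM 3, and the unfolded protein median −0.10 without D3 2 and 0.18 without FM 1.

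Oxidative phosphorylation and cholesterol synthesis genes shared little full separation from FM. Over all genes 5.35% lay below FM in all 6 libraries and 5.03% above. Of 73 tested subunits 1 lay below (1.37%) and 0 above, while 58 had a negative difference. Their median was −0.13, which library size alone turned to 0.12. Of 30 cholesterol genes 0 lay beyond FM, while 23 had a negative difference. Their median was −0.39, which was −0.66 without FM 3 and 0.11 without FM 1. Of 35 constitutive proteasome subunits 0 lay beyond FM in all 6 libraries, and 34 had a positive difference. Their median was −0.0066 for SBM and 0.42 for D3 over the same FM libraries.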
